A study of Mus musculus with 9 samples.

Results

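The genes described here are the 34 that carry pyruvate into the tricarboxylic acid (TCA) cycle, turn the cycle, take citrate out of it and make itaconate. They were chosen by name, with no value in the rule, though with earlier results of these data known. Each was found in both tables by its Ensembl identifier, as 34 of 55655 rows. They comprise 17 mitochondrial enzymes of the cycle, 3 cytosolic isozymes, 7 genes of pyruvate entry, 4 kinases of pyruvate dehydrogenase (PDH), 2 genes of citrate export and cleavage, and Acod1. The cells were bone marrow-derived macrophages (BMDMs) from the femur and tibia of wild type C57BL/6 mice aged 6 to 8 weeks, grown for 7 days with 10 ng/mL M-CSF, the growth factor that turns marrow precursors into macrophages. There were 3 libraries each of M0 macrophages, labelled as not treated with PBM, of M1 macrophages, polarized with lipopolysaccharide (LPS) and interferon-γ (IFN-γ), and of M1 macrophages that also received PBM, which is irradiation with near-infrared light, all M1 cultures being described as taken at 12 h. The labels of the M0 samples carry the same polarization text as the others, and nothing in the labels says that libraries of 1 group came from separate mice, so the p-values below measure only the spread between these libraries.

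Pyruvate made by glycolysis enters mitochondria through a carrier of Mpc1 and Mpc2 and is turned into acetyl-CoA by the PDH complex, which the Pdk kinases switch off by phosphorylation. Citrate synthase joins acetyl-CoA to oxaloacetate, and the cycle then oxidizes citrate stepwise through isocitrate, 2-oxoglutarate, succinyl-CoA, succinate, fumarate and malate. Inflammatory macrophages are known for a cycle that is interrupted at isocitrate dehydrogenase and at succinate dehydrogenase, for export of citrate to make lipid, and for itaconate, which Acod1 makes from cis-aconitate and which inhibits succinate dehydrogenase. The question of the comparison of M1 + PBM with M1 was which transcripts differed when polarized macrophages were irradiated.

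Values are FPKM, the fragments counted per length of transcript and depth of the library, so levels can be set side by side between genes. Depth was estimated from the spacing of low values at 30700000 to 42080000 fragments per library. M0 replicate 3 stood apart. Its Nos2 was 1.79 FPKM against 0.015 and 0.013 in M0 replicates 1 and 2, it had 4 of 6 M1 markers at 1 FPKM or more where the others had 0, and its 6 stromal markers summed to 191 FPKM against 6.94 and 5.62, Col1a1 alone giving 123 FPKM. In the other 6 libraries the stromal sum lay between 6.31 and 27.8 FPKM. M1 replicate 2 held traces of liver transcripts, with albumin at 9.01 FPKM where the other 8 libraries were listed at 0. All 8 macrophage markers were at 1 FPKM or more in every library, and the polarization marker Nos2 was 112 to 290 FPKM in M1 and 65.9 to 88.8 FPKM in M1 + PBM. Of the other M1 markers, Cd86 and Il6 were also lower with PBM without overlap, while Il12b, Cxcl9 and Cd38 overlapped. Cxcl9 was 7.38 to 28.9 FPKM in M1 and 8.21 to 33.4 FPKM in M1 + PBM. Hif1a, a transcription factor gene, stood at 44.2 to 49.7 FPKM in M1 and 20.5 to 24.8 FPKM in M1 + PBM, without overlap. RNA from a whole culture cannot tell fewer cells of a type apart from less RNA per cell.

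By the mean of the M0 libraries, the most abundant of the 34 transcripts were Sdhd, a membrane anchor of succinate dehydrogenase, Acly, which cleaves exported citrate, and Sdha, the catalytic subunit of succinate dehydrogenase. Sdhd lay between 47.4 and 51.9 FPKM, Sdha between 42.1 and 45.1 FPKM and Acly between 40.3 and 54.8 FPKM, so that Acly overlapped with both, while Sdhd and Sdha did not overlap. In single libraries others were higher still, Idh1 with 62.9 FPKM in M0 replicate 2 and Acod1 with 77.6 FPKM in M0 replicate 3. The lowest means were those of Pdk4, Mpc2 and Pdk2, followed by Pcx, the pyruvate carboxylase that refills oxaloacetate. Mpc2 ranged from 1.29 to 1.75 FPKM, Pdk2 from 1.71 to 2.63 FPKM and Pcx from 0.969 to 4.19 FPKM, which overlap in part, and Acod1 was as low in M0 replicates 1 and 2. The sum over the 33 genes other than Acod1 was 534, 575 and 608 FPKM in the M0 libraries, 410, 437 and 360 FPKM in the M1 libraries and 433, 436 and 429 FPKM in the M1 + PBM libraries.

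**Figure D1:**
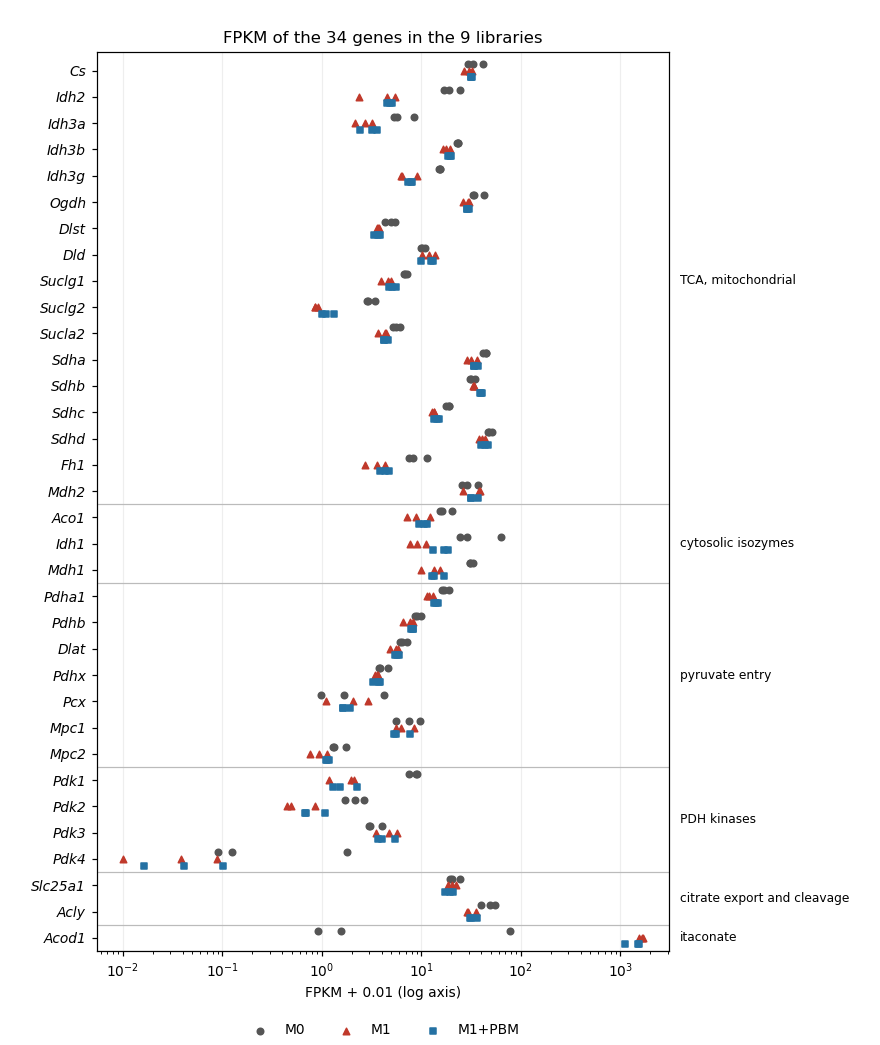
FPKM of each of the 34 genes in the 9 libraries, on a log axis to which 0.01 was added so that a listed 0 can be drawn, grouped by role, with M0 as circles, M1 as triangles and M1 + PBM as squares. Acod1 is the gene with the widest gap between M0 and both M1 groups, and M1 and M1 + PBM stand apart for Suclg2, Sdhb, Idh1, Pdha1 and Acod1 alone.

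M1 macrophages were set against M0 first. The tables of M0 and of the other 6 libraries stand apart, so this comparison is a description with no test, on the scale of mean log2(FPKM + 1), on which changes of low values are understated. Of the 34 genes, Acod1 alone was higher in every M1 library with a difference of 2-fold or more, and 8 were lower by the same rule. These were Idh2, Idh3a, Idh3g, Suclg2, Fh1, Idh1, Mdh1 and Pdk1. Of all 13915 rows that reached 1 FPKM in 3 or more of the 9 libraries, 7.81% were higher and 13.7% lower by that rule. Of the 34 genes, 33 passed that filter, Pdk4 being the exception, and 28 of the 33 differences were below 0, as were 72.6% of all rows. Without regard to size, M0 and M1 did not overlap for 1 gene that was higher and 24 that were lower, against 15.6% and 50.6% of all rows. Without M0 replicate 3 the 2-fold rule again gave 8 lower genes, with Pdk2 in place of Idh3a. The share of all rows without that library is not given.

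The scale of the 2 tables matters for the direction. The median difference over all rows was -0.34 and that over the 33 genes was -0.36, so the genes as a group lay about as far below 0 as the table as a whole. When the 9 libraries were scaled by the median of ratios, the median over all rows became 0.056, that over the 33 genes 0.055, and 14 of the 33 were below 0. By the 2-fold rule, 3 genes were then lower, Idh2, Idh1 and Pdk1, against 6.80% of all rows, and Acod1 was still higher, against 12.0%. Of the genes with a difference near -0.34, Idh3b, Sucla2, Ogdh and Dlst lay above 0 after scaling, between 0.05 and 0.15, and Mpc2 stayed below it, at -0.07. As deposited, the 17 mitochondrial enzymes and 3 cytosolic isozymes together summed to 416 to 459 FPKM in M0 and 271 to 331 FPKM in M1. The 17 mitochondrial enzymes alone summed to 330 to 388 FPKM in M0 and 246 to 294 FPKM in M1. These sums were not scaled, so their direction carries the same limit.

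**Figure D2:**
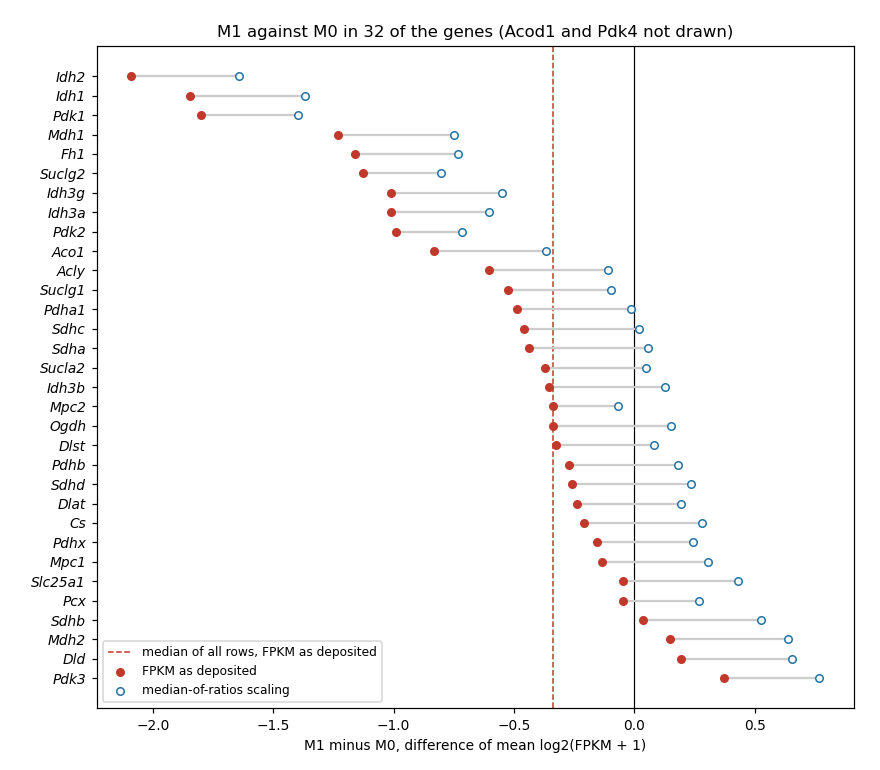
Difference of mean log2(FPKM + 1), M1 minus M0, for 32 genes, as deposited (filled circles) and after median-of-ratios scaling (open circles). The dashed line marks the median of all rows as deposited (-0.34), and Idh2, Idh1 and Pdk1 lie farthest below it on either scale.

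Acod1 encodes aconitate decarboxylase, the enzyme that makes itaconate. Its level was 1.54, 0.897 and 77.6 FPKM in M0 replicates 1 to 3, 1690, 1548 and 1643 FPKM in the M1 libraries, and 1535, 1523 and 1121 FPKM in the M1 + PBM libraries. M0 replicate 3 was far above the other M0 libraries and still below every polarized library. The difference M1 minus M0 was 7.81, 9.53 without M0 replicate 3, and the ratio of mean FPKM was 61.0 with that library and 1334 without it. Among all rows Acod1 ranked 12255, 13962 and 416 in the M0 libraries, 16 to 21 in M1 and 21 to 27 in M1 + PBM.

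The isocitrate dehydrogenases turn isocitrate into 2-oxoglutarate. Idh2, the mitochondrial form that uses NADP, was 16.8, 19.0 and 24.7 FPKM in M0, 4.54, 5.41 and 2.34 FPKM in M1, and 5.08, 4.55 and 4.85 FPKM in M1 + PBM. Every M0 library was above every polarized library. The difference M1 minus M0 was -2.09, -1.94 without M0 replicate 3 and -1.64 with scaling. Idh1, the cytosolic form, was 28.8, 62.9 and 24.7 FPKM in M0 and 11.2, 8.96 and 7.72 FPKM in M1, a difference of -1.85, or -2.10 without M0 replicate 3. Again no M1 library reached an M0 library, with M0 replicate 2 far above the other M0 libraries. The NAD-dependent enzyme of the cycle is built of Idh3a, Idh3b and Idh3g. Idh3a was 5.64, 5.37 and 8.48 FPKM in M0 and 2.73, 3.19 and 2.14 FPKM in M1. Idh3g was 15.5, 15.1 and 15.4 FPKM in M0 and 6.24, 9.03 and 6.34 FPKM in M1. Both were lower without overlap, by 1.01 on the log2 scale each, while Idh3b went from 22.8 to 23.6 FPKM in M0 to 16.7 to 19.4 FPKM in M1, a difference of -0.36. Idh3a fell short of the 2-fold rule when M0 replicate 3 (-0.83) or M1 replicate 3 (-0.90) was left out, and Idh3g when M1 replicate 1 (-0.93) or M1 replicate 3 (-0.94) was. With scaling the differences of Idh3a and Idh3g were -0.60 and -0.55.

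Further along the cycle, the genes lower by the 2-fold rule were single subunits or enzymes beside others that, as deposited, differed by less. Suclg2, the GTP-forming subunit of succinyl-CoA synthetase, was 2.83, 3.46 and 2.91 FPKM in M0 and 0.838, 0.899 and 0.842 FPKM in M1, a difference of -1.13. Its alternative, the ATP-forming Sucla2, was 6.05, 5.24 and 5.55 FPKM in M0 and 4.27, 4.42 and 3.66 FPKM in M1. Both pairs of groups stood apart, with a difference of -0.37 for Sucla2, close to the median of all rows. Fh1, fumarase, was 8.32, 7.59 and 11.5 FPKM in M0 and 3.58, 4.29 and 2.70 FPKM in M1, and Mdh1, the cytosolic malate dehydrogenase, was 32.8, 30.6 and 30.6 FPKM in M0 and 13.6, 15.3 and 9.97 FPKM in M1. Neither overlapped, with differences of -1.16 and -1.23. Without M0 replicate 3 the differences of Suclg2, Fh1 and Mdh1 were -1.15, -1.0 and -1.25, and that of Idh3g was -1.01. With scaling those of Suclg2, Fh1 and Mdh1 were -0.80, -0.73 and -0.75, short of the 2-fold rule. The mitochondrial Mdh2 was 25.7 to 37.5 FPKM in M0 and 26.3 to 38.7 FPKM in M1, which overlap. The 4 subunits of succinate dehydrogenase differed by between -0.46 (Sdhc) and 0.04 (Sdhb), all but Sdhb being lower without overlap. Citrate synthase (Cs) differed by -0.21, from 33.4, 29.3 and 42.1 FPKM to 30.2, 32 and 27.1 FPKM. Suclg1 differed by -0.53 without overlap, and by -0.10 with scaling. With scaling Mdh2 differed by 0.64, Cs by 0.28 and the 4 subunits by between 0.02 (Sdhc) and 0.53 (Sdhb). Aco1, the cytosolic aconitase that also acts as an iron sensor, was 16.2, 20.4 and 15.6 FPKM in M0 and 8.91, 12.1 and 7.23 FPKM in M1, without overlap but short of the 2-fold rule.

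The kinases that switch off PDH did not move together. Pdk1 was 8.77, 7.60 and 9.11 FPKM in M0, 2.10, 1.17 and 1.98 FPKM in M1 and 1.52, 1.29 and 2.25 FPKM in M1 + PBM. All polarized libraries lay below all M0 libraries, and M1 minus M0 was -1.80, -1.75 without M0 replicate 3 and -1.40 with scaling. Pdk2 was 2.15, 2.63 and 1.71 FPKM in M0, 0.486, 0.849 and 0.438 FPKM in M1 and 0.691, 0.661 and 1.06 FPKM in M1 + PBM. It too was lower without overlap, by 0.99, just short of the 2-fold rule, which it passed without M0 replicate 3 (-1.10). With scaling the Pdk2 difference was -0.71. Pdk3 was 3.03, 2.99 and 4.0 FPKM in M0, 4.74, 3.50 and 5.77 FPKM in M1 and 4.05, 3.66 and 5.49 FPKM in M1 + PBM. As deposited the groups overlapped, and M1 minus M0 was 0.37, and 0.77 with scaling. Pdk4 was 0.080, 0.114 and 1.78 FPKM in M0, 0.028, 0.078 and 0 FPKM in M1 and 0.093, 0.0064 and 0.031 FPKM in M1 + PBM. M0 replicate 3, the library with the high stromal sum, held nearly all of it. In that library Pdk4 and the stromal markers were high together, and their link was not tested.

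The genes of PDH itself, of the carrier and of citrate export differed by less than 2-fold. As deposited, Pdha1 and Pdhb, the subunits of the decarboxylase, Dlat, the acetyltransferase, and Pdhx, which anchors the shared subunit Dld, differed by between -0.49 and -0.16. With scaling they differed by between -0.01 (Pdha1) and 0.24 (Pdhx). The carrier genes differed by -0.13 for Mpc1, from 5.54, 9.74 and 7.54 FPKM to 6.32, 8.39 and 5.62 FPKM, and by -0.34 for Mpc2, from 1.33, 1.75 and 1.29 FPKM to 0.761, 1.12 and 0.934 FPKM. The Mpc1 libraries overlapped and the Mpc2 libraries did not. Pcx differed by -0.05 and, without M0 replicate 3, by 0.35, so that library set its sign. Slc25a1, the citrate carrier, differed by -0.05 and Acly by -0.60. With scaling the differences were 0.30 for Mpc1, -0.07 for Mpc2, 0.27 for Pcx, 0.43 for Slc25a1 and -0.11 for Acly.

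M1 + PBM was described against the same M0 libraries, so this comparison and the previous one share their controls. By the 2-fold rule Acod1 was again higher (7.13% of all rows) and 4 genes were lower (10.3% of all rows), Idh2, Idh1, Mdh1 and Pdk1. Their differences from M0 were -1.84, -1.11, -1.09 and -1.83, where those of M1 were -2.09, -1.85, -1.23 and -1.80. With scaling the rule gave 2 lower genes, Idh2 and Pdk1, against 5.71% of all rows, with Idh1 at -0.72, and Acod1 was higher, against 10.1%. Without M0 replicate 3 the 4 differences were -1.70, -1.37, -1.10 and -1.79 for Idh2, Idh1, Mdh1 and Pdk1. The Idh1 difference was -0.71 without M0 replicate 2 and -0.98 without M1 + PBM replicate 2, so its call here is lost without either library.

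To show the regulatory sequence of 3 genes these differences turn on, Acod1, Idh1 and Pdk1, the 250 bases before their annotated start were taken from RefSeq on GRCm38.p6, matched by symbol. Capitals mark every match, on either strand, to the hypoxia response core (ACGTG or GCGTG), to the CCAAT box (CCAAT) and to the GC box (GGGCGG). The sequences run 5′ to 3′ along the gene.
Acod1, chr14:103046762-103047011, plus strand: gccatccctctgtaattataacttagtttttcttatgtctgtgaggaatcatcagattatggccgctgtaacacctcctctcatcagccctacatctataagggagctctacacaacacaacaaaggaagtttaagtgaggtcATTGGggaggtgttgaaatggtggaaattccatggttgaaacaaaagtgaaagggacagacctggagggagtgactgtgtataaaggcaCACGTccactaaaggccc
Idh1, chr1:65186480-65186729, minus strand: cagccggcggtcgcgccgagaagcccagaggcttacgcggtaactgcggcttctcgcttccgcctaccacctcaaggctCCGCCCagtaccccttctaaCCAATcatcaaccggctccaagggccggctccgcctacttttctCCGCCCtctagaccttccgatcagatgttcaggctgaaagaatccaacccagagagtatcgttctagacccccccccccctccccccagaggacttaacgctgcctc
Pdk1, chr2:71872974-71873223, plus strand: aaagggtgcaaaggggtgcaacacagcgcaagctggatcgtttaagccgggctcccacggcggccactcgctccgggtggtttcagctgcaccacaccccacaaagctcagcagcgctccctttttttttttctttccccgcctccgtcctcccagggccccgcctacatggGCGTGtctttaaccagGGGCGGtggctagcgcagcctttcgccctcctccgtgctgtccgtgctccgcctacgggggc
Windows were found for 32 of the 34 genes, all but Sdhc and Idh3a. The hypoxia response core was present in 23 of the 32 and in 38.6% of 27025 mouse genes with a window, the CCAAT box in 20 of the 32 and in 34.5% of all, and the GC box in 21 of the 32 and in 32.9% of all. The Acod1 window held a hypoxia response core whose first base lies 18 bases before the start and a CCAAT box at 107, with 44.4% G and C, against 61.6% in Idh1 and 64.0% in Pdk1. Idh1 held a CCAAT box at 151 and GC boxes at 171 and 107, and Pdk1 a hypoxia response core at 78 and a GC box at 62. The shares over all genes were not matched to the members for expression or for G and C content, and all 3 motifs were more frequent among the members. A link of any motif to the levels was not tested. Such matches are descriptions of letters, and binding was not measured.

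**Figure D3:**
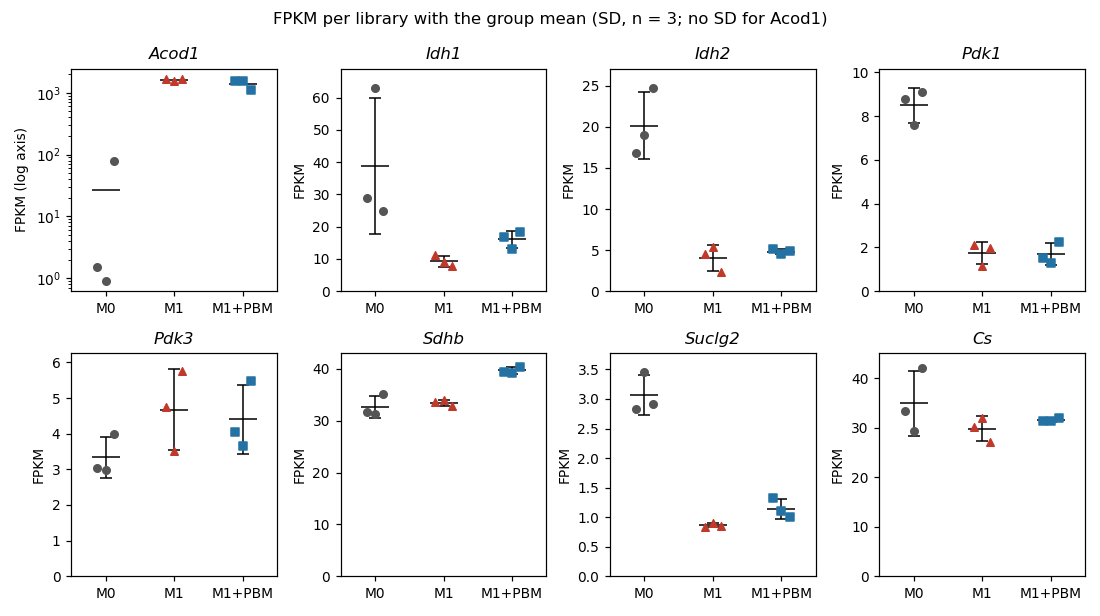
FPKM per library of 8 genes in M0 (circles), M1 (triangles) and M1 + PBM (squares), with the mean as a line and the SD (n = 3) as a bar, except for Acod1, drawn on a log axis without SD. Idh1 and Sdhb are higher in all 3 M1 + PBM libraries than in any M1 library, and Cs overlaps.

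M1 + PBM was then tested against M1, within 1 table. Idh1 was higher with PBM in all 3 libraries and Sdhb, the iron-sulphur subunit of succinate dehydrogenase, by a small margin, before adjustment for multiple tests. No other gene of the 34 reached an unadjusted p of 0.05, and none was called after adjustment. By the thresholds of the study, an unadjusted p of at most 0.05 and a fold change of at least 2, the test called 0 of the genes higher and 0 lower, against 0.0245% and 0.237% of the 12238 rows tested. By an adjusted p under 0.05 (limma, Benjamini-Hochberg) the counts were 0 higher and 0 lower, against 0.00% and 0.00817% of the rows. By an unadjusted p of at most 0.05 alone, 2 of the 32 genes tested were higher and 0 lower, against 2.99% and 1.45% of the rows. The genes not tested, Pdk2 and Pdk4, were below 1 FPKM in most libraries, and Suclg2 passed the filter only through its M1 + PBM libraries.

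Idh1 stood at 11.2, 8.96 and 7.72 FPKM in M1 and at 16.8, 13.1 and 18.4 FPKM in M1 + PBM. Every irradiated library was above every M1 library and below every M0 library. The log2 fold change was 0.73 (SE 0.17, 95% interval 0.32 to 1.15), with an unadjusted p of 0.0046 and an adjusted p of 0.90 (limma, Benjamini-Hochberg). The differences by replicate number were 0.55, 0.50 and 1.15. Under the 13 other settings tried, the fold change ranged from 0.62 to 0.87 and the unadjusted p stayed at or under 0.05. Sdhb stood at 33.6, 34 and 32.9 FPKM in M1 and at 39.5, 39.2 and 40.4 FPKM in M1 + PBM, where M0 had 31.6, 31.3 and 35.1 FPKM. All 3 irradiated libraries exceeded the other 6. The log2 fold change was 0.24 (SE 0.084, 95% interval 0.037 to 0.44), with an unadjusted p of 0.027 and an adjusted p of 0.90 (limma). With median-of-ratios scaling it was 0.16 with an unadjusted p of 0.12 (limma). Without M1 replicate 1, M1 replicate 2 or any 1 of the M1 + PBM libraries, it was between 0.23 and 0.25 with the p above 0.05.

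The groups did not overlap for 4 genes that were higher, Suclg2, Sdhb, Idh1 and Pdha1, and for 1 that was lower, Acod1, against 8.51% and 2.52% of the rows tested. Suclg2 had a log2 fold change of 0.20, from 0.838, 0.899 and 0.842 FPKM to 1.32, 1.09 and 1.00 FPKM. Pdha1, the catalytic subunit of PDH, had 0.19, from 11.3 to 13.2 FPKM to 13.4 to 14.7 FPKM. Neither Suclg2 nor Pdha1 reached an unadjusted p of 0.05. Suclg2 passed the filter only through its M1 + PBM libraries, so its place among the 4 is no support. The highest of the 3 irradiated Acod1 libraries, 1535 FPKM, was just below the lowest M1 library, 1548 FPKM, and M1 + PBM replicate 3, at 1121 FPKM, was well below the rest. The log2 fold change of Acod1 was -0.24 (SE 0.16, 95% interval -0.61 to 0.14) with an unadjusted p of 0.17 (limma), and -0.089 without M1 + PBM replicate 3. For a single gene, the smallest p of an exact permutation test on 3 and 3 libraries is 0.1.

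The interval of each gene tested was taken alone, without adjustment, on log2(FPKM + 1), which understates changes of low values. Pdk2 and Pdk4 have none. Over the 31 tested genes other than Idh1, the 95% intervals lay between -0.64 and 0.82 on the log2 scale. Pdk1 differed by -0.03 (SE 0.19) and Pdk3 by -0.06 (SE 0.19), each with a sign that turned when single libraries were left out. Cs differed by 0.09, from 27.1 to 32 FPKM to 31.3 to 32 FPKM, and Idh2 by 0.25, with a wide interval of -0.33 to 0.82. By role, the median log2 fold change was 0.11 over the 17 mitochondrial enzymes, 0.16 over the 3 cytosolic isozymes and 0.063 over the 7 genes of pyruvate entry.

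**Figure D4:**
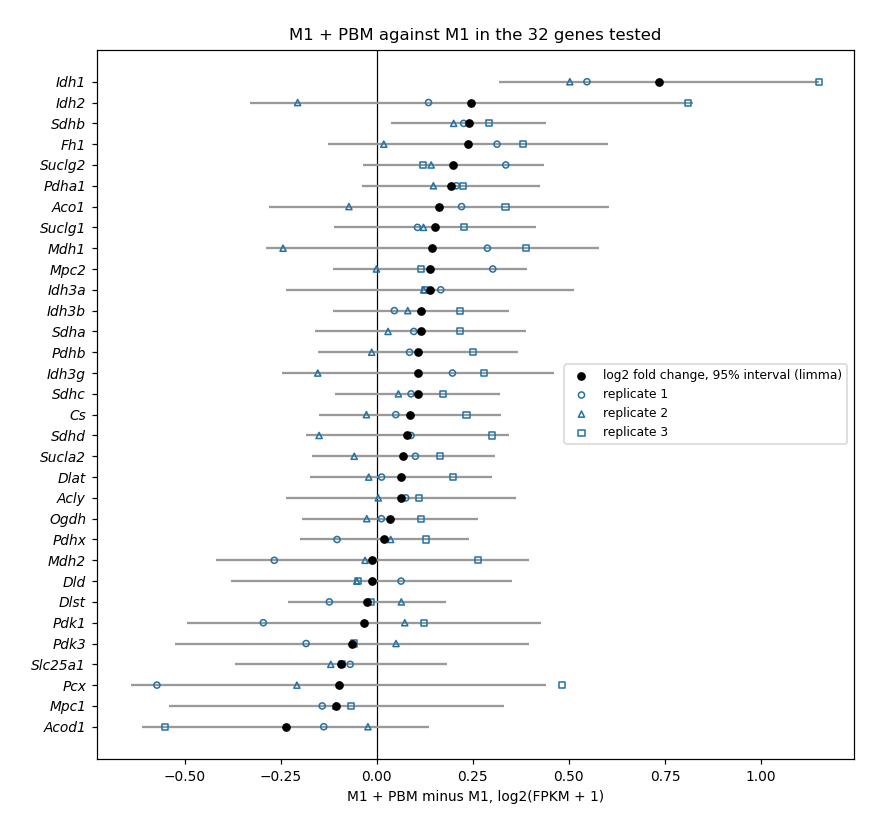
Log2 fold change of M1 + PBM against M1 for the 32 genes tested (filled circles) with 95% intervals from limma, and the differences within each replicate number (open symbols). The interval leaves out 0 only for Idh1 and Sdhb, and replicate 3 (squares) lies to the right of replicate 2 (triangles) for most genes.

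A slight lean towards higher values with PBM ran through the whole table. Of the 32 genes, 23 had a fold change above 0 and 9 below, against 65.6% and 34.4% of all rows, and their median was 0.096 against 0.058 over all rows. By replicate number the median was 0.087, -0.0072 and 0.21, with 23, 15 and 26 of the 32 genes higher. M1 replicate 3 was the lowest M1 library for 23 of the 32 genes and for 50.9% of all rows, and M1 replicate 2 the highest for 21 of the 32 and for 46.1% of all rows. Without M1 replicate 3 the median of the genes was 0.019, and with median-of-ratios scaling it was 0.0073 against -0.0056 over all rows.

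Ratios of 2 genes within a library do not depend on the scaling of that library and were set across all 9. Pdk1 to Pdk3 was 2.28 to 2.89 in M0, 0.335 to 0.443 in M1 and 0.351 to 0.409 in M1 + PBM. Pdk1 was thus the more abundant of the kinases in every M0 library and Pdk3 in every polarized library. Mdh1 to Mdh2, the cytosolic to the mitochondrial malate dehydrogenase, was 0.817 to 1.19 in M0, 0.351 to 0.405 in M1 and 0.346 to 0.525 in M1 + PBM. Sucla2 to Suclg2, the ATP-forming to the GTP-forming subunit, was 1.52 to 2.14 in M0, 4.35 to 5.10 in M1 and 3.53 to 4.21 in M1 + PBM. The M0 libraries did not overlap with M1 for any of these ratios. Mpc1 to Mpc2 was also higher in every M1 library (6.02 to 8.31) than in any M0 library (4.16 to 5.86), though M0 replicate 3 and M1 replicate 3 nearly met. Acod1 to Cs was 0.031 to 1.84 in M0 and 48.3 to 60.7 in M1, and M0 replicate 3 gave the highest M0 value. Idh1 to Idh2 (1.00 to 3.32 in M0, 1.66 to 3.30 in M1) and Aco1 to Cs (0.370 to 0.696 in M0, 0.267 to 0.379 in M1) overlapped.

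Between M1 and M1 + PBM, Sucla2 to Suclg2 was the one ratio of the 7 whose groups did not overlap. Suclg2 lay near 1 FPKM in both groups and passed the filter only through its M1 + PBM libraries, so this ratio is no support. The ratio was lower with PBM by 0.31 on the log2 scale, with an exact two-sided permutation p of 0.1, the smallest that 3 against 3 allows, and 0.525 adjusted over the 7 ratios. The other 6 differed by between -0.40 (Mpc1 to Mpc2) and 0.47 (Idh1 to Idh2), with exact permutation p of 0.2 or more.

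**Figure D5:**
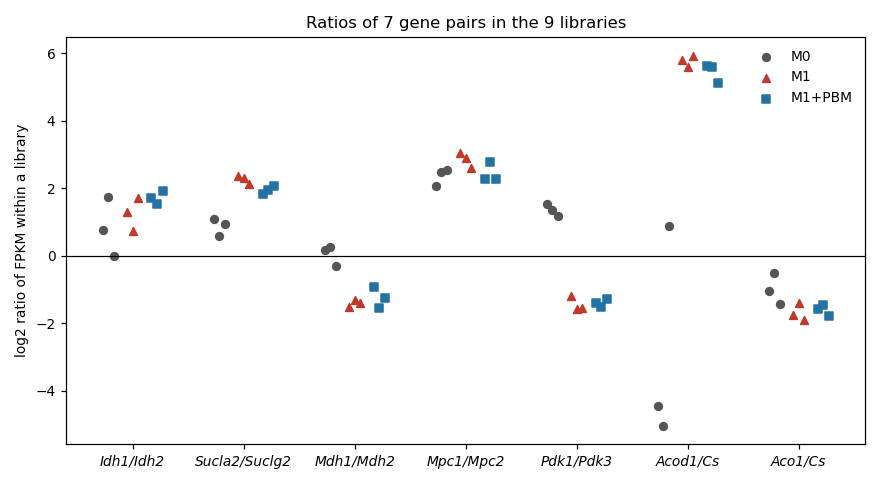
Log2 ratio of FPKM for 7 gene pairs within each library, with M0 as circles, M1 as triangles and M1 + PBM as squares. M0 and M1 stand apart for Sucla2/Suclg2, Mdh1/Mdh2, Mpc1/Mpc2, Pdk1/Pdk3 and Acod1/Cs. M1 and M1 + PBM stand apart for Sucla2/Suclg2 alone, where Suclg2 lies near 1 FPKM in both groups.

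Of 51 other genes of the pathway, which regulate PDH, assemble the complexes, feed in glutamate, shuttle malate, handle lactate and acetyl-CoA, or act on succinate, itaconate and 2-hydroxyglutarate, 41 were tested against M1. With PBM 3 reached an unadjusted p of at most 0.05 and were higher and 0 were lower, against 2.99% and 1.45% of all rows, and 33 of the 41 were above 0, against 65.6% of all rows. Sdhaf4, an assembly factor of succinate dehydrogenase, was 1.95, 2.19 and 1.57 FPKM in M1 and 2.61, 2.66 and 3.26 FPKM in M1 + PBM. Slc16a7, a monocarboxylate carrier, was 0.796, 0.534 and 0.703 FPKM in M1 and 1.38, 1.10 and 1.09 FPKM in M1 + PBM. It passed the filter only through its M1 + PBM libraries, so its place among the 3 is no support. Pck2, the mitochondrial phosphoenolpyruvate carboxykinase, was 1.14, 1.40 and 1.07 FPKM in M1 and 1.94, 1.44 and 1.77 FPKM in M1 + PBM. All 3 had no overlap, with log2 fold changes of 0.41, 0.38 and 0.30, adjusted p of 0.90 each (limma), and the levels with PBM were below those of every M0 library. Against M0, 12 of 44 were lower in M1 by the 2-fold rule and 1 was higher, Slc25a12, a carrier of the malate-aspartate shuttle, named after its values were seen, at 4.41 to 5.85 FPKM in M0 and 10.8 to 14.6 FPKM in M1. The shares of all rows were 13.7% lower and 7.81% higher. With scaling 4 were lower and 1 higher, against 6.80% and 12.0% of all rows.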

How the data were processed

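RNA was sequenced on an Illumina HiSeq instrument from strand-specific TruSeq libraries, per the labels. The authors deposited FPKM values in 2 tables of 55655 identical rows, 1 for the 3 M0 libraries and 1 for the 3 M1 and 3 M1 + PBM libraries. The study's methods name Cufflinks methods, the submitters' processing notes list Bowtie 0.12.2 and mm9 without roles, and 320 rows have the MSTRG names that StringTie gives. No coordinates of the files were used. Symbols were found for 55154 rows through GENCODE M21, and all 34 members matched. Counts were not used here; of low FPKM values, 22.7% to 24.5% were whole fragments (within 0.05), where 10% are so if evenly spread, and depth was estimated from these steps.

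M1 + PBM was tested against M1 with limma 3.58.1 (R 4.3.3, lmFit, eBayes with trend, two-sided) on log2(FPKM + 1) over the 12238 rows that reached 1 FPKM in 3 or more of its 6 libraries, and p-values were adjusted by Benjamini-Hochberg over all of them. The procedure was tested on simulated data with changes larger than any seen in the members between M1 and M1 + PBM. That test does not bear on changes as small as theirs. M0 was compared without a test over 13915 rows. The members and lists were chosen with earlier results of these data known. Named were Acod1, the Pdk genes, members past an unadjusted p of 0.05 or the 2-fold rule against M0, and members of the 7 ratios. Of the related genes, those past an unadjusted p of 0.05 were named. Promoters were read from RefSeq (GRCm38.p6), the first window listed per gene.

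Replicate numbers, which the labels give, were checked as pairs. The deviations from the group mean were alike where an M1 and an M1 + PBM library had 1 number (r across genes 0.157, 0.469 and 0.462). Where the numbers differed, r was -0.491 to 0.0328. Deviations cancel within a group, so likeness at the same number lowers r at the others, and this contrast is partly built in. A fit with the replicate block was added. Each library was also left out in turn, the libraries were rescaled (quantile normalization, or the median of ratios), the pseudocount was set to 0.1, the filter was dropped or raised to a mean FPKM of 5, and the trend was left out.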

Additional observations from a re-analysis of the deposited data

How the results depend on the processing

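The counts of 0 by the fold rule and by adjusted p held under every alternative run. By an unadjusted p of at most 0.05, 1 gene was higher with median-of-ratios scaling, and 1 to 3 when a library was left out (1 without M1 replicate 1 or any 1 of the M1 + PBM libraries, and 3, namely Idh1, Fh1 and Idh3g, without M1 replicate 2). Genes higher without overlap numbered 2 with median-of-ratios scaling or quantile normalization (4.54% and 5.43% of all rows) and 4 to 14 when a library was left out (12.2% to 22.3%), the 14 being without M1 replicate 2, where 22.3% of all rows were so. Genes lower without overlap numbered 0 with either scaling (4.46% and 3.74%) and 1 to 3 when a library was left out (3.57% to 7.39%), the 3 being without M1 replicate 3 (6.85%). Related genes higher by an unadjusted p of at most 0.05 (limma) numbered 0 at a mean FPKM of at least 5. When a library was left out they numbered 1 to 8, the 8 being without M1 replicate 2 and the 1 without M1 + PBM replicate 1 or 3. Those lower then numbered 0 to 1, the 1 being Slc16a1, a lactate carrier, without M1 replicate 2. The share of all rows by an unadjusted p is not given for these settings. Such counts, of members or related genes, are therefore not read as results about these genes.

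With the replicate block, 2 members were higher (Idh1 and Sdhb) and 0 lower, and 1 related gene, Slc16a1, was lower, with no other call changed in number. Leaving out a library turned the sign of Pdk1 (-0.19 to 0.075), of Pdk3 (-0.22 to 0.073), of the Pdk1 to Pdk3 ratio (-0.044 to 0.16) and of the Aco1 to Cs ratio (-0.016 to 0.24), none of which was called. Against M0, the members lower by the 2-fold rule in M1 numbered 3 with median-of-ratios scaling (6.80% of all rows). They numbered 6 to 10 when a library was left out, the 6 without M1 replicate 3 (Idh3a and Idh3g lost) and the 10 without M1 replicate 2 (Aco1 and Pdk2 gained). Those lower in M1 + PBM numbered 8 at a pseudocount of 0.1 and 2 with that scaling (5.71% of all rows). For the other settings the share of all rows is not given, so those counts are not read as results about the members. Where scaling changed a count, the cause was not tested. Depth limits the low genes most: with the longest annotated transcript, at most 88.7 to 395 fragments lay behind Suclg2 in a library and at most 30.8 to 201 behind Pdk2. Intervals from limma cover the spread between libraries.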
